A study of Mus musculus with 18 samples.

Results

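Hindlimbs of Pitx1 knockout mouse embryos at E12.5 (E for embryonic day) were compared with hindlimbs of wild-type embryos that were 1 day younger (E11.5). The comparison asks which genes the later knockout limb had brought to the level of the earlier wild-type limb, which had gone past it and which had stayed under it. It rests on 6 of the 18 RNA-seq libraries of the series, 3 per group, chosen by the stage and genotype given in the labels. All embryos were of the C57BL/6 strain, and the knockout embryos carried a Pitx1 knockout allele. Which exons the allele removes is not in the labels. Nothing states that the 3 libraries of a group are separate animals, so a p-value here covers the spread among those libraries alone, and that spread may be technical. Stage, genotype and deposited table all change together between the groups, and their parts in a difference cannot be told apart. For context, the 3 E12.5 wild-type and the 3 E11.5 knockout libraries were placed on the same scale. Their comparisons share libraries with the main one, so their values are set side by side and no overlap is drawn.

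PITX1 is a homeodomain transcription factor made in the hindlimb and not in the forelimb, where it acts upstream of Tbx4 and shapes hindlimb skeleton, muscle and tendon. Over the day between these stages the wild-type limb bud is known to leave its early patterning programme, condense cartilage, specify joints and begin to form differentiated muscle from precursors that migrated in from the somites. A bulk sample measures all of these cells at once, so fewer cells of a type and less RNA per cell cannot be told apart.

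Levels are given as CPM, fragment counts divided by a library size corrected by TMM scaling over the 12 hindlimb libraries, and are not corrected for gene length. Differences are log2 values of E12.5 knockout minus E11.5 wild type, with standard errors (SE), 95% intervals and adjusted p-values from edgeR's quasi-likelihood test. The E11.5 wild-type libraries held 38770844 to 40973176 fragments and the E12.5 knockout libraries 22361170 to 29993146, so depth moved with the group and its part in the results was not tested. Limb mesenchyme markers (Prrx1, Prrx2, Twist1, Msx1) summed to 1274 to 1354 CPM in the E11.5 wild type and 1248 to 1366 in the E12.5 knockout. The wild-type replicates at E11.5 were unlike each other. Their 8 muscle markers summed to 167, 230 and 65.0 CPM in replicates 1 to 3, against 436, 506 and 859 in the E12.5 knockout. Replicate 3 also held the most red cell RNA, with 5 markers summing to 8540 CPM against 4906 and 3652. The X-inactivation transcript Xist was at 0.0865 to 0.657 CPM over the 6 libraries and the Y-linked gene Ddx3y at 83.1 to 116 CPM. Ddx3y was slightly lower in the later knockout (-0.29 ± 0.09, adjusted p = 0.0372), a call lost without any library but E11.5 wild-type replicate 1 (adjusted p up to 0.14). On the first principal component of the 12 libraries, E11.5 wild-type replicate 2 lay closest to the E12.5 libraries and replicate 3 farthest.

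**Figure D1:**
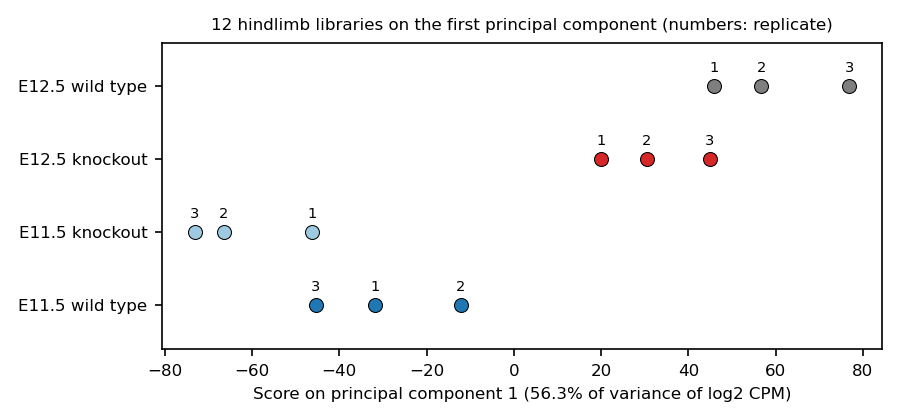
Scores of the 12 hindlimb libraries on the first principal component of log2 CPM (56.3% of variance), 1 row per group, with replicate numbers above the points. The E12.5 knockout libraries score 20.04, 30.5 and 44.9, between the E11.5 wild type (-45.4 to -12.1) and the E12.5 wild type (46.0 to 76.9).

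Pitx1 RNA measured 339, 275 and 267 CPM in the E11.5 wild type and 25.4, 31.3 and 27.1 CPM in the E12.5 knockout. The knockout libraries were all far under the wild-type libraries, at 9.52% of their mean, a log2 difference of -3.39 ± 0.12 (SE, adjusted p = 1.1e-06). The E11.5 knockout held 57.6, 42.8 and 49.3 CPM, and the E12.5 wild type 267, 264 and 104. The genotype labels of all 12 libraries thus match the Pitx1 level, as far as fragments outside the deleted part allow such a check.

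Of 15324 genes tested, 3302 (21.5%) differed between the later knockout and the earlier wild type. The later knockout was higher for 1646 genes (10.7%), here called above the E11.5 wild-type level, and lower for 1656 (10.8%), called below it. These shares are the background for every list count given later. Some counts lie near them, such as 2 of 19 BMP genes below, 3 of 27 Wnt genes below and 2 of 22 muscle precursor and regulator genes above. A further 7327 genes (47.8%) did not pass the test and had a 95% interval that lay inside a 1.5-fold change in either direction, and these are called within 1.5-fold. The remaining 4695 (30.6%) are unresolved, with an interval too wide to say whether the level was reached. Genes above the level had a median log2 difference of 0.65, and 526 of them reached 2-fold. Differences below it were smaller, with a median of -0.41 and 255 genes at 2-fold or more. The count rested partly on single libraries, with 1609 calls without E12.5 knockout replicate 2 and 1577 without replicate 3. Without E11.5 wild-type replicate 1 there were 1035 higher and 1292 lower calls. Of the 3302 calls, 1277 held whichever of the 6 libraries was left out. All 3 later knockout libraries were over all 3 E11.5 wild-type libraries at 3207 genes (20.9%) and under them at 3130 (20.4%), which is the background for any single gene whose groups do not overlap.

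By the same test the wild type alone differed between E12.5 and E11.5 at 3841 genes (25.1%), 2119 higher (13.8%) and 1722 lower (11.2%), and at 2155 to 2464 without E11.5 replicate 1 or 3 or E12.5 replicate 2 or 3. The knockout differed from the wild type at 320 genes (2.09%) within E11.5, with 174 higher (1.14%) and 146 lower (0.953%), and at 3 genes (0.0196%) within E12.5. These 3 were Tbx4, Gdf5 and the zinc finger gene Zfp429, all lower in the knockout. Pitx1 itself was not among them, although every E12.5 knockout library was under every E12.5 wild-type library. Wild-type replicate 3 held far less Pitx1 than the other E12.5 wild-type libraries. The test within E12.5 thus missed the targeted gene, and a gene that did not pass there is not shown to be unchanged. The count within E11.5 was 9 to 138 without E11.5 wild-type replicate 1 or 2 or E11.5 knockout replicate 2 or 3, 711 and 625 without wild-type replicate 3 or knockout replicate 1, and 1315 in DESeq2. Within E12.5 it was 1 without replicate 2 of either genotype, 6 to 31 without any other library and 451 in DESeq2. These 2 counts thus depend on the processing and on single libraries.

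**Figure D2:**
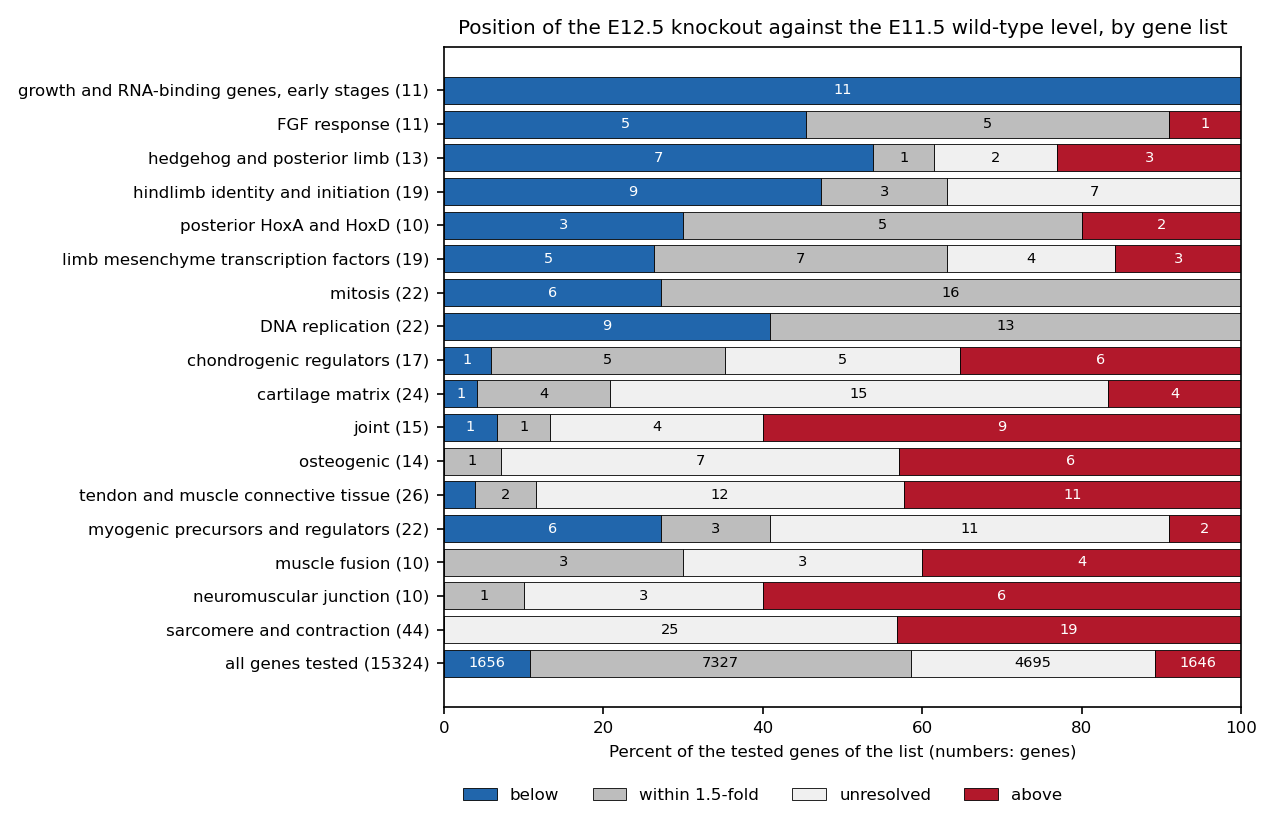
Share of the tested genes of 17 lists, and of all genes, that the E12.5 knockout held below, within 1.5-fold of, above or unresolved against the E11.5 wild-type level, with gene numbers in the bars and tested genes in brackets. All 11 early-stage growth genes are below, 19 of 44 sarcomere genes are above with none below, and 15 of 24 cartilage matrix genes are unresolved.

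None of 19 hindlimb identity and initiation genes was above in the later knockout. There were 9 below, 3 within 1.5-fold and 7 unresolved, with a median log2 difference of -0.72 against 0 over all genes. In the E12.5 wild type the median difference of these genes from E11.5 was also -0.72, with 10 of the 19 lower. Within E12.5 the median of the knockout minus the wild type was 0.15. Tbx4, the T-box gene of the hindlimb, measured 212, 180 and 193 CPM in the E11.5 wild type and 75.1, 83.0 and 70.4 CPM in the E12.5 knockout. The groups did not overlap, and the log2 difference was -1.36 ± 0.08 (adjusted p = 2.96e-05). Wild-type libraries at E12.5 held 143, 137 and 128 CPM of Tbx4, a difference of -0.52 from E11.5 (adjusted p = 0.00512), and the E11.5 knockout 64.3 to 71.4 CPM. The knockout values lay near each other at both stages, and the wild type was lower at the later one. Isl1, needed to start the hindlimb bud, was at 16.2 to 28.9 CPM in the E11.5 wild type and 7.20 to 7.48 in the later knockout, a difference of -1.53 ± 0.21 (adjusted p = 0.00193). In the E12.5 wild type its log2 difference from E11.5 was -1.62, so the later limbs of both genotypes were low. Hoxc9 was also below (-1.35 ± 0.24, adjusted p = 0.00474), as was the limb-inducing growth factor Fgf10 by a small margin (-0.32 ± 0.10, adjusted p = 0.0389). The Fgf10 call was lost on leaving out any library but E12.5 knockout replicate 2 (adjusted p up to 0.151, without knockout replicate 3), and under upper-quartile scaling (0.0528) or a fit of all 12 libraries (0.36), whereas those of Pitx1, Tbx4, Isl1 and Hoxc9 held in all 6 cases. Hoxc10, a posterior HoxC gene of the hindlimb, was unresolved at -0.74 ± 0.29 (adjusted p = 0.137), with knockout libraries of 69.7, 39.9 and 71.7 CPM against 104, 77.7 and 121, and passed without edgeR's robust step (adjusted p = 0.0406). The number of these genes below fell to 5 without E11.5 wild-type replicate 1 or 3, or E12.5 knockout replicate 2, and to 6 without knockout replicate 1.

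The posterior HoxA and HoxD genes pattern the limb along its length. Of 10 tested, 5 were within 1.5-fold (Hoxa10, Hoxa11, Hoxa13, Hoxd10 and Hoxd11), 3 were below and 2 above. Hoxa11 measured 98.2, 85.1 and 87.8 CPM in the E11.5 wild type and 114, 102 and 91.5 CPM in the later knockout, and the groups overlapped. Its log2 difference was 0.18, with an interval of -0.02 to 0.38. Hoxd11 differed by 0.06, with an interval of -0.13 to 0.24, where the E12.5 wild type stood at -0.47 (adjusted p = 0.0334). Below were the more proximal Hoxa9 (-0.59 ± 0.08, adjusted p = 0.00133) and Hoxd9 (-0.65 ± 0.11, adjusted p = 0.00339), together with Hoxd8, whose call was lost without E11.5 wild-type replicate 3 (adjusted p = 0.058) or knockout replicate 2 (adjusted p = 0.0779). Above were the digit genes Hoxd12 and Hoxd13. Hoxd13 reached 626, 782 and 574 CPM in the later knockout against 434, 496 and 390 in the E11.5 wild type, a difference of 0.59 ± 0.13 (adjusted p = 0.0155). Both digit gene calls were lost without E11.5 wild-type replicate 1, at an adjusted p of 0.0605 for Hoxd12 and 0.0628 for Hoxd13.

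Of 13 hedgehog and posterior limb genes 7 were below and 3 above. Sonic hedgehog (Shh), the posterior signal, measured 4.63, 1.29 and 10.3 CPM in the E11.5 wild type and 0.262, 0.0652 and 0.0865 CPM in the E12.5 knockout, and it was 0.0246 to 0.0803 CPM in the E12.5 wild type. The log2 difference of -5.32 ± 1.02 (adjusted p = 0.0164) was lost without any 1 of the 3 knockout libraries (adjusted p of 0.0551, 0.0917 and 0.1). Grem1, a BMP antagonist that links the hedgehog and ridge signals, was below at -1.41 ± 0.20 (adjusted p = 0.00234). Gli1, the transcriptional effector, was at -0.74 ± 0.18 (adjusted p = 0.0265), a call lost without E11.5 wild-type replicate 1 or 3 or E12.5 knockout replicate 1 or 2 (adjusted p up to 0.0814). The calls above, Gli2, Gli3 and Smo, were all absent without E11.5 wild-type replicate 1 or 3 or E12.5 knockout replicate 2 or 3 (adjusted p up to 0.188), and Smo also without either other library.

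Among 14 genes of the apical ridge, the ectodermal rim that drives outgrowth, and of dorsoventral patterning, 5 were below and 4 above. Fgf8, the main ridge growth factor, was at 11.4, 6.82 and 11.6 CPM in the E11.5 wild type and at 3.89, 2.67 and 3.11 in the later knockout, a difference of -1.63 ± 0.25 (adjusted p = 0.00236). The Wnt agonist Rspo2 was also below (-1.46 ± 0.26, adjusted p = 0.00652). The homeobox genes Dlx5 (0.92 ± 0.17, adjusted p = 0.00551), Dlx6 (1.85 ± 0.28, adjusted p = 0.00241) and Msx2 (1.11 ± 0.18, adjusted p = 0.00714) were above. Their E12.5 wild-type differences from E11.5 were 0.82, 1.76 and 0.89. Of the 11 genes that respond to or transduce FGF signals, 5 were below, 5 within 1.5-fold and only Fgfr2 above. The phosphatase gene Dusp6, a feedback target, measured 282, 202 and 265 CPM in the E11.5 wild type and 121, 114 and 114.7 CPM in the later knockout. Its difference was -1.10 ± 0.11 (adjusted p = 0.000798), and that of the ETS factor Etv4 was -1.05 ± 0.11 (adjusted p = 0.000537). The feedback inhibitor Spry4 was below at -0.73 ± 0.12 (adjusted p = 0.00354), with a difference of -0.25 (adjusted p = 0.197) in the E12.5 wild type. The calls of Grem1, Fgf8, Rspo2, Dlx5, Dlx6, Msx2, Dusp6, Etv4 and Spry4 held whichever library was left out, though that of Dlx5 was lost in a fit of all 12 libraries (adjusted p = 0.0875). Without E11.5 wild-type replicate 1 the ridge and dorsoventral genes below numbered 2, and without E12.5 knockout replicate 3 they numbered 3.

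Listed growth regulators and RNA-binding proteins of early embryonic stages were lower in the later knockout than in the E11.5 wild type. The list was written with earlier results of these data known. All 11 tested were below, with a median log2 difference of -0.85, and 9 to 11 were below with a library left out. Lin28b, which blocks maturation of the let-7 microRNAs, measured 83.2, 67.7 and 89.3 CPM in the E11.5 wild type and 24.8, 20.6 and 15.1 CPM in the E12.5 knockout. The groups did not overlap, with a difference of -1.99 ± 0.18 (adjusted p = 0.00113), and the E12.5 wild type was at 20.8, 15.9 and 8.93 CPM. Its relative Lin28a differed by -3.80 ± 0.43 (adjusted p = 0.000711). Hmga2, a chromatin protein of growing embryonic tissue, fell from 1307, 1277 and 1567 CPM to 717, 648 and 665 (-1.03 ± 0.09, adjusted p = 0.000192). The ubiquitin ligase gene Trim71, a let-7 target, differed by -1.67 ± 0.21 (adjusted p = 0.00104), and the messenger RNA-binding protein gene Igf2bp1 by -0.66 ± 0.08 (adjusted p = 0.000876). The same 5 genes of the E12.5 wild type differed from E11.5 by -2.41, -3.63, -1.07, -2.15 and -0.69 in this order. Within E12.5 the knockout and wild-type libraries differed by 0.42 for Lin28b (adjusted p = 0.576) and 0.04 for Hmga2 (adjusted p = 0.939). Each of the 5 calls held with any library left out.

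Proliferation genes lay at or slightly under the earlier wild-type level. Of 22 mitosis genes 16 were within 1.5-fold and 6 below, and of 22 DNA replication genes 13 were within 1.5-fold and 9 below, with none above in either list. The medians were -0.14 for mitosis and -0.20 for DNA replication. In the E12.5 wild type they were -0.29 and -0.33, with 14 and 15 genes lower than at E11.5. Within E12.5 the medians of the knockout minus the wild type were 0.16 and 0.13, with no gene of either list past the threshold. The largest differences of the later knockout from the E11.5 wild type were modest. Bub1, a checkpoint kinase gene, measured 226, 214 and 262 CPM in the E11.5 wild type and 170, 168 and 156 CPM in the later knockout (-0.51 ± 0.08, adjusted p = 0.00304), and Ccnb1, encoding cyclin B1, differed by -0.36 ± 0.07 (adjusted p = 0.00719). Ccne2, a cyclin of S phase entry, differed by -0.62 ± 0.12 (adjusted p = 0.00708). Top2a was within 1.5-fold at -0.17, with an interval of -0.32 to -0.03, and passed in DESeq2 (adjusted p = 0.0397). The E11.5 knockout stood on the other side of the wild type for Ccnb1 (0.48, adjusted p = 0.0228) and Top2a (0.38, adjusted p = 0.0345). The counts below fell to 4, 4 and 3 for mitosis without E11.5 wild-type replicate 3, E12.5 knockout replicate 2 and knockout replicate 3. They fell to 5 and 4 for DNA replication without knockout replicates 2 and 3. The calls of Bub1, Ccnb1 and Ccne2 held throughout.

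Pmaip1, which encodes the pro-apoptotic protein NOXA, was lower in both E12.5 groups than in the E11.5 wild type, and higher than it in the E11.5 knockout. It was at 158, 144 and 160 CPM in the E11.5 wild type, 296, 330 and 332 CPM in the E11.5 knockout, 63.2, 59.0 and 39.8 CPM in the E12.5 knockout, and 38.0, 29.7 and 16.6 CPM in the E12.5 wild type. The later knockout was below the earlier wild type by -1.51 ± 0.16 (adjusted p = 0.00181), and the E11.5 knockout above it by 1.05 ± 0.07 (adjusted p = 0.00029). Of 14 cell cycle exit and p53 genes, the other one below was the stress gene Gadd45a (-0.68 ± 0.14, adjusted p = 0.00718), 9 were within 1.5-fold and none was above. Both calls below held with any library left out.

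**Figure D3:**
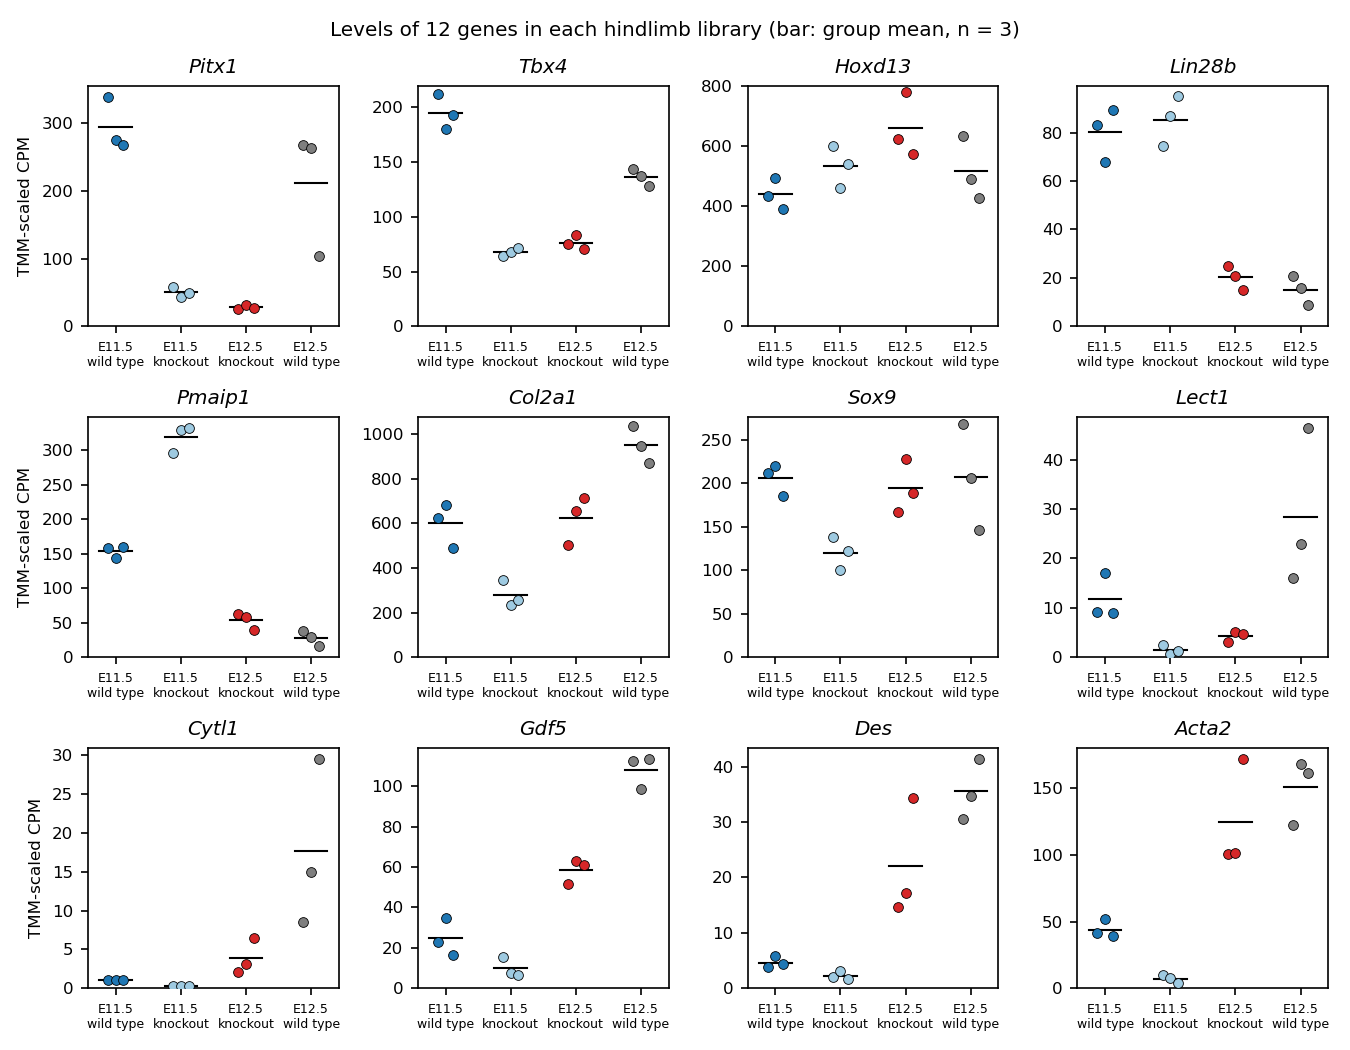
TMM-scaled CPM of 12 genes in each hindlimb library (points) with group means (bars, n = 3), in the order E11.5 wild type, E11.5 knockout, E12.5 knockout, E12.5 wild type. The E12.5 knockout is under every E11.5 wild-type library for Pitx1, Tbx4, Lin28b, Pmaip1 and Lect1, mixes with them for Col2a1 and Sox9, and is over every one for Hoxd13, Cytl1, Gdf5, Des and Acta2.

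In the cartilage programme the later knockout was at the earlier wild-type level for central regulators and the main collagen, and could not be placed for most matrix genes. Sox9, the master regulator of cartilage, measured 211, 220 and 185 CPM in the E11.5 wild type and 167, 228 and 189 CPM in the E12.5 knockout. The groups overlapped, and the log2 difference of -0.08 had an interval of -0.33 to 0.18. Its partner Sox5 was likewise within 1.5-fold (0.13, interval -0.17 to 0.44), while Sox6 was unresolved at 0.66 ± 0.35 and passed without E11.5 wild-type replicate 2 (adjusted p = 0.000794). Col2a1, the main cartilage collagen, was at 626, 684 and 492 CPM against 504, 656 and 713 CPM, a difference of 0.06 with an interval of -0.33 to 0.44. In the E12.5 wild type Col2a1 was at 872 to 1036 CPM, 0.66 above E11.5 (adjusted p = 0.00804), and in the E11.5 knockout at 232 to 345 CPM, a difference of -1.11 (adjusted p = 0.0356). For Sox9, Sox5 and Col2a1 the later knockout was thus within 1.5-fold of the wild type a day younger.

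Over 24 cartilage matrix genes tested, 4 were above, 1 below, 4 within 1.5-fold and 15 unresolved, with a median of 0.27 against 1.61 in the E12.5 wild type. Chondromodulin (Lect1), an inhibitor of vessel growth in cartilage, was the one below, with 9.10, 17.1 and 8.92 CPM in the E11.5 wild type and 3.06, 5.21 and 4.75 CPM in the later knockout (-1.43 ± 0.30, adjusted p = 0.0117). Lect1 was at 16.1, 23.0 and 46.3 CPM in the E12.5 wild type and at 0.598 to 2.39 CPM in the E11.5 knockout, so every knockout library was under every wild-type library. Above were the secreted protein genes Cytl1 (1.85 ± 0.39, adjusted p = 0.0099) and Mia (2.87 ± 0.54, adjusted p = 0.00967), the cartilage adhesion protein gene Chad (2.11 ± 0.54, adjusted p = 0.0202) and the collagen gene Col9a1. Cytl1 reached 2.10, 3.19 and 6.53 CPM from 1.07 to 1.13 CPM, where the E12.5 wild type was at 8.47 to 29.5 CPM. Col9a1 was at 327, 367 and 342 CPM against 177, 254 and 200 CPM (0.71 ± 0.12, adjusted p = 0.00639), and the E12.5 wild type at 314 to 378 CPM overlapped it. The Chad call was lost without E11.5 wild-type replicate 1 or 3 or E12.5 knockout replicate 2 or 3 (adjusted p up to 0.0758), and those of Lect1, Cytl1, Mia and Col9a1 held in all 6 cases, with that of Lect1 lost in a fit of all 12 libraries (adjusted p = 0.0808). The count above was 6 without E11.5 wild-type replicate 2.

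Among the matrix genes that could not be placed, the E11.5 wild-type libraries themselves ranged widely. Acan, encoding aggrecan, measured 3.52, 14.3 and 0.574 CPM there and 3.59, 11.2 and 15.5 CPM in the later knockout. Its interval ran from -2.58 to 4.002. Matrilin 1 (Matn1), a gene of maturing cartilage, was at 1.44, 3.48 and 0.678 CPM against 0.437, 0.0652 and 3.41 CPM, while the E12.5 wild type held 13.1, 31.8 and 28.0 CPM (3.69, adjusted p = 0.0133). E11.5 wild-type replicate 2 was the highest and replicate 3 the lowest of the 3 in both genes. Replicate 2 was the highest of the 3 in the cartilage marker sum as well (1207 CPM against 1042 and 924). In the E12.5 knockout that sum was 1028 to 1298 CPM, and in the E12.5 wild type 1533 to 1781.

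Of 17 chondrogenic regulators 6 were above, 5 within 1.5-fold and 1 below. Pth1r, the receptor for parathyroid hormone-related protein, was above, with 101, 106 and 114 CPM against 68.2, 68.3 and 74.1 (0.61 ± 0.07, adjusted p = 0.000923). Bmp7 was above at 0.42 ± 0.08 (adjusted p = 0.00469). The zinc finger gene Zfp219, a reported Sox9 cofactor, was below at -0.41 ± 0.08 (adjusted p = 0.0061). These 3 calls held with any library left out (Zfp219 was lost in a fit of all 12 libraries, adjusted p = 0.0836), but the count above moved to 3 without E11.5 wild-type replicate 1 or E12.5 knockout replicate 2, 2 without knockout replicate 3, 4 without wild-type replicate 3 and 10 without wild-type replicate 2. Runx2, which drives bone and cartilage maturation, was at 10.1, 15.4 and 10.9 CPM against 7.92, 10.4 and 15.1 CPM, unresolved at -0.13 with an interval of -0.68 to 0.42. By E12.5 the wild type had reached 22.8 to 26.8 CPM (1.04, adjusted p = 0.00505).

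Joint genes had mostly passed the earlier wild-type level. Of 15 tested, 9 were above, 1 within 1.5-fold and 1 below, with a median log2 difference of 0.89. Gdf5, the defining growth factor of the joint interzone, measured 23.0, 34.6 and 16.7 CPM in the E11.5 wild type and 51.3, 62.9 and 60.9 CPM in the E12.5 knockout (1.24 ± 0.27, adjusted p = 0.0266). The E12.5 wild type held 112, 98.4 and 113 CPM, so the later knockout lay between both wild-type stages and differed from the E12.5 wild type by -0.89 (adjusted p = 0.0453). The call against E11.5 was lost without E11.5 wild-type replicate 1 or any 1 knockout library (adjusted p of 0.0566 to 0.0968). The joint Wnt genes Wnt4 (0.89 ± 0.12, adjusted p = 0.00167) and Wnt9a (0.92 ± 0.17, adjusted p = 0.0057), the growth factor gene Gdf6 (0.91 ± 0.18, adjusted p = 0.00706) and Enpp2, which makes lysophosphatidic acid (0.97 ± 0.16, adjusted p = 0.00538), were above with any library left out. Dcx, a microtubule-binding protein gene, was the one below (-0.64 ± 0.08, adjusted p = 0.00119). The count above was 6 without each E12.5 knockout library in turn.

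Of 14 osteogenic genes tested 6 were above, 1 within 1.5-fold and 7 unresolved, with none below. The type I collagen genes Col1a1 (0.68 ± 0.11, adjusted p = 0.00449) and Col1a2 (0.54 ± 0.08, adjusted p = 0.00242) were above, as was Sparc, encoding a collagen-binding protein (1.01 ± 0.08, adjusted p = 0.000192). Sparc measured 353, 372 and 429 CPM against 178, 203 and 193, and the E12.5 wild type 447, 544 and 885. Sp7, encoding osterix of the bone-forming lineage, was unresolved with 2.10, 2.31 and 3.20 CPM against 2.21, 2.68 and 2.03, where the E12.5 wild type held 5.18 to 5.80 CPM. The calls of Col1a1, Col1a2 and Sparc held with any library left out, and that of Col1a1 was lost in a fit of all 12 libraries (adjusted p = 0.122).

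Muscle genes are given by their step in differentiation. Among 22 precursor and regulator genes 6 were below the earlier wild-type level, 2 above, 3 within 1.5-fold and 11 unresolved, and genes of the contractile apparatus were above it or unresolved with positive values. The promoters of Des, Myoz2 and Myom1 are shown as examples, 3 contractile genes above the level that passed the test with any library left out. Actn3, Tpm1 and Xirp1 also passed in this way and are not shown. Each sequence is RefSeq's, on build GRCm38.p6, from 250 bases before to 50 bases after the annotated start, with capitals marking CANNTG, the E-box bound by MYOD family factors, which reads the same on both strands.
Des (chr1:75360042-75360341, plus strand): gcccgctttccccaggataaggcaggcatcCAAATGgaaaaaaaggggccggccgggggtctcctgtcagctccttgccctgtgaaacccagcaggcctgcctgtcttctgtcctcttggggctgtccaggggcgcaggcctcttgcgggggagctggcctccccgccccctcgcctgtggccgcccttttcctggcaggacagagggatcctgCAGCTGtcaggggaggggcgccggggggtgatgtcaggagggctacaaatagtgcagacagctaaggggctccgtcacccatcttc
Myoz2 (chr3:123034938-123035237, minus strand): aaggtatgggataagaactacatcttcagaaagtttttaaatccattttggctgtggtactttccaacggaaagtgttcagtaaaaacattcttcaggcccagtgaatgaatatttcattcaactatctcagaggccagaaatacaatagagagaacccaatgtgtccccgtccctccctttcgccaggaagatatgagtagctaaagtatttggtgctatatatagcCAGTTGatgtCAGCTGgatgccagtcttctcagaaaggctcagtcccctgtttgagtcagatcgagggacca
Myom1 (chr17:71019307-71019606, plus strand): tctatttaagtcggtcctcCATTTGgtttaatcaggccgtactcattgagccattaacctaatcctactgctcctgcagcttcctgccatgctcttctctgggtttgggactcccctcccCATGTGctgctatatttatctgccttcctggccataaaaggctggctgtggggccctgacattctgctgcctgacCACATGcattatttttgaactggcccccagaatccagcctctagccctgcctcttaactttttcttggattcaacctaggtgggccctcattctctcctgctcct

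The motif was found 2 times each in the Des and Myoz2 windows and 3 times in that of Myom1. It is common: 72.3% of the 32851 promoters of this length in the RefSeq table hold it, as do 31 of 35 contractile genes with a listed promoter and 13 of 20 cartilage matrix genes. A match is a string of letters and not a measured binding site.

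Pax3, which marks the migrating muscle precursors, measured 9.02, 6.18 and 11.1 CPM in the E11.5 wild type and 3.28, 2.28 and 2.98 CPM in the later knockout (-1.63 ± 0.25, adjusted p = 0.00257). In the E12.5 wild type it was at 0.910 to 2.20 CPM (-2.46, adjusted p = 0.00414). The precursor genes Met, a receptor needed for migration (-0.72 ± 0.09, adjusted p = 0.000923), and Six4, a homeobox regulator of myogenesis (-0.63 ± 0.08, adjusted p = 0.000871), were below as well. The 6 regulators below numbered 3 without E12.5 knockout replicate 2. Pax7, of the later precursors, was unresolved at 2.67, 2.997 and 8.26 CPM against 2.16, 1.92 and 1.46 (1.32 ± 0.43, adjusted p = 0.0558, 0.00915 in DESeq2 and 0.0306 without knockout replicate 1). Lbx1, a homeobox gene of migrating precursors, was below at -1.27 ± 0.28 (adjusted p = 0.0108) and Myf5, a determination factor, at -0.73 ± 0.18 (adjusted p = 0.0163). Lbx1 lost its call without E12.5 knockout replicate 2 (adjusted p = 0.0531), and Myf5 without E11.5 wild-type replicate 1 or 3 or that knockout library (adjusted p up to 0.0722). Myod1 and Myog, further determination and differentiation factors, were unresolved. Myod1 was at 32.4, 28.4 and 44.7 CPM against 26.6, 27.4 and 14.8 (0.61 ± 0.29, adjusted p = 0.185), and Myog at 66.4, 65.8 and 112 CPM against 33.4, 37.6 and 14.2 (1.52 ± 0.46, adjusted p = 0.0896). The libraries of the 2 groups did not overlap for Myog, which passed in DESeq2 (adjusted p = 0.00932), without the robust step (0.0136) and in a fit of all 12 libraries (0.0345). Myod1 passed in DESeq2 (adjusted p = 0.0184). Rxrg, a retinoid receptor gene, was above at 2.13 ± 0.38 (adjusted p = 0.00666).

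Of 44 genes of the sarcomere and contraction 19 were above, none was below or within 1.5-fold and 25 were unresolved. Their median log2 difference was 2.18, with positive values in all 44, and the median was 2.97 in the E12.5 wild type. Within E12.5 the median of the knockout minus the wild type was -0.95, and Des for one did not pass there (-0.69, adjusted p = 0.378). Des, encoding desmin of the muscle cytoskeleton, measured 3.81, 5.75 and 4.30 CPM in the E11.5 wild type and 14.7, 17.2 and 34.3 CPM in the E12.5 knockout (2.25 ± 0.36, adjusted p = 0.00784). Desmin RNA in the E12.5 wild type was at 30.6, 34.8 and 41.4 CPM. Myom1, encoding the M-band protein myomesin, was above at 1.605 ± 0.245 (adjusted p = 0.00273) and Actn3, a Z-disc actinin gene, at 1.22 ± 0.21 (adjusted p = 0.00387). Acta2, the smooth muscle actin gene also used by early muscle cells, was at 100, 102 and 172 CPM against 41.3, 51.7 and 38.9 CPM (1.503 ± 0.259, adjusted p = 0.0154). Its E11.5 knockout level was 4.34 to 9.98 CPM, and the E12.5 wild type held 122 to 168. The Acta2 call was lost without E11.5 wild-type replicate 1 (adjusted p = 0.0526) or 3 (adjusted p = 0.0543), while those of Des, Myom1, Actn3 and Rxrg held throughout.

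Some contractile genes were unresolved despite large differences. Actc1, the cardiac actin gene of embryonic muscle, was at 62.8, 92.3 and 18.2 CPM in the E11.5 wild type and 212, 254 and 427 CPM in the later knockout (2.36 ± 0.71, adjusted p = 0.0914). The myosin light chain gene Mylpf measured 14.3, 21.8 and 5.43 CPM against 45.4, 61.6 and 106 CPM and did not pass (2.35 ± 0.64, adjusted p = 0.0718). Actc1 passed in DESeq2 (adjusted p = 0.00419), without the robust step (0.011) and in a fit of all 12 libraries (0.035), as did Mylpf (0.00197, 0.00833 and 0.0123). E11.5 wild-type replicate 3 was the lowest and E12.5 knockout replicate 3 the highest in both genes, as in the muscle marker sum, and the part of this spread in the results was not tested. The count above was 22 without E11.5 wild-type replicate 2 and 16 without replicate 3. It was 8 without wild-type replicate 1 and 10 without E12.5 knockout replicate 2 or 3.

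At the nerve-muscle contact 6 of 10 genes were above and none below. Rapsn, which clusters acetylcholine receptors, measured 4.81, 5.44 and 9.21 CPM against 2.36, 2.07 and 0.887 (1.86 ± 0.38, adjusted p = 0.0099), and was the one that held with any library left out. Chrng, the embryonic receptor subunit, was above at 2.01 ± 0.46 (adjusted p = 0.0217), lost without E11.5 wild-type replicate 1 (adjusted p = 0.0554) or knockout replicate 2 (adjusted p = 0.0585). Of 10 fusion genes 4 were above, led in evidence by the fusogen gene Tmem8c with 8.62, 10.03 and 15.8 CPM against 3.37, 3.90 and 1.77 (1.93 ± 0.32, adjusted p = 0.00504), which also held throughout. Counts were again low without single libraries. The junction genes above numbered 1, 3 and 2 without wild-type replicate 1, knockout replicate 2 and knockout replicate 3, and the fusion genes 1, 2, 2 and 1 without wild-type replicates 1 and 3 and knockout replicates 2 and 3.

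**Figure D4:**
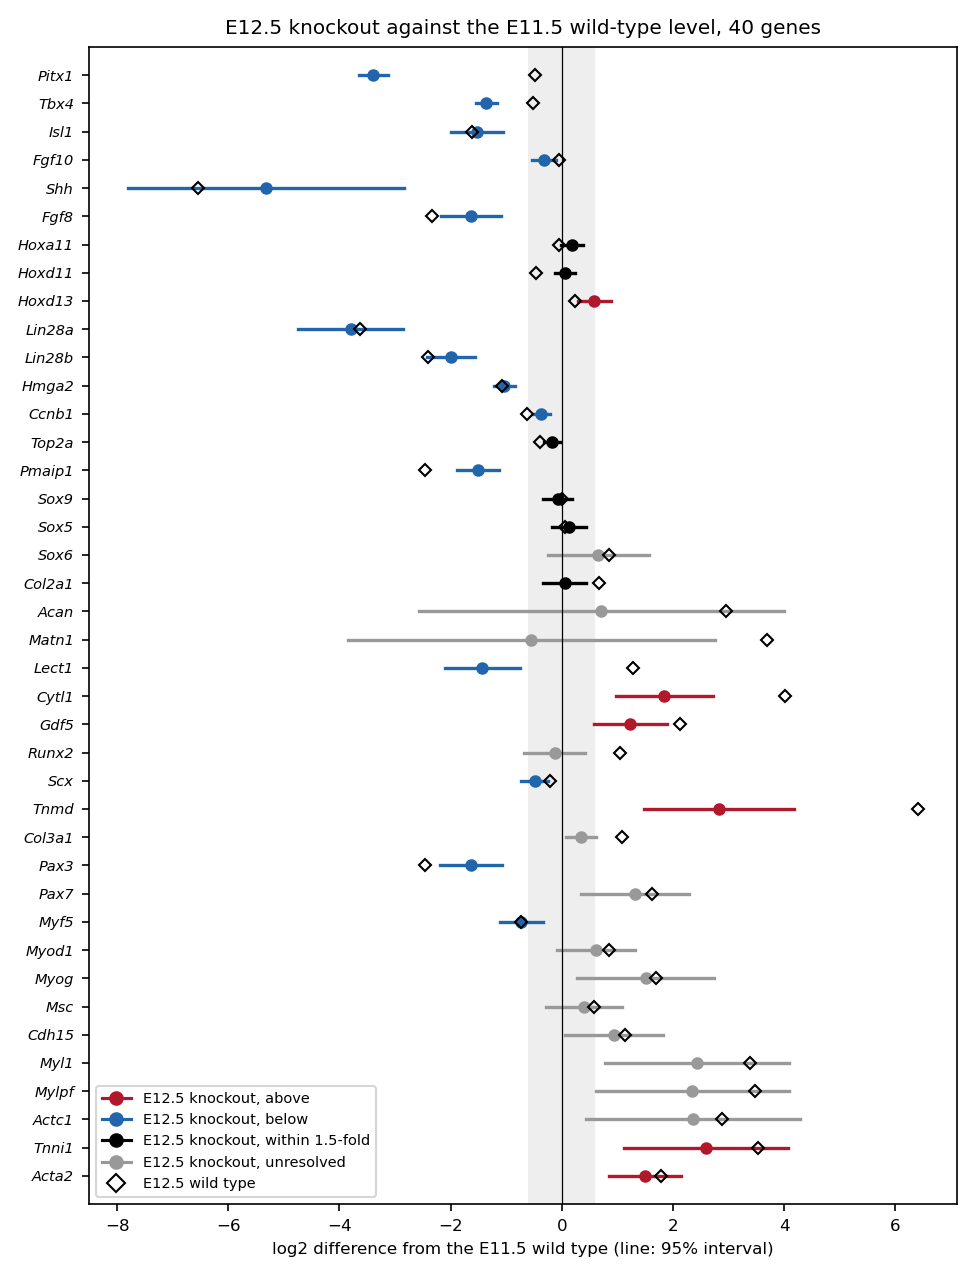
Log2 difference of the E12.5 knockout from the E11.5 wild type for 40 genes (circles, with 95% intervals as lines), coloured by position, beside the difference of the E12.5 wild type (open diamonds, drawn without interval). The shaded band spans 1.5-fold in either direction. Sox9, Sox5, Col2a1, Hoxa11, Hoxd11 and Top2a lie inside it, and Acan and Matn1 have the widest intervals among the cartilage genes drawn.

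Tendon and muscle connective tissue genes were above in 11 of 26 cases, below in 1 and unresolved in 12, with a median of 0.88. Scx, the early tendon transcription factor, was the one below, with 32.8, 30.1 and 35.6 CPM against 52.7, 40.3 and 44.96 (-0.49 ± 0.11, adjusted p = 0.0121), a call lost without E12.5 knockout replicate 2 (adjusted p = 0.0553). Tnmd, encoding tenomodulin of later tendon cells, was above at 0.350, 0.880 and 0.994 CPM from 0.0974 to 0.104 CPM (2.83 ± 0.61, adjusted p = 0.0103). Wild-type levels at E12.5 ranged from 1.65 to 21.5 CPM, with replicate 3 far the highest. The collagen-binding proteoglycan gene Fmod was above at 1.71 ± 0.26 (adjusted p = 0.00758) and Bgn at 0.67 ± 0.11 (adjusted p = 0.00294), as was the collagen gene Col5a2 (0.80 ± 0.08, adjusted p = 0.000507). Col3a1, an abundant fibrillar collagen gene, was unresolved at 0.35 ± 0.12 (adjusted p = 0.0652, 0.00874 in DESeq2), where the E12.5 wild type stood at 1.08 (adjusted p = 0.00618). The calls of Tnmd, Fmod, Bgn and Col5a2 held with any library left out, and those of Tnmd and Bgn were lost in a fit of all 12 libraries (adjusted p of 0.089 and 0.155). The count above was 7 without E11.5 wild-type replicate 1 or E12.5 knockout replicate 3.

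The transcription factors of limb mesenchyme were within 1.5-fold of the earlier wild type in 7 of 19 cases, among them Prrx1, Twist1 and Msx1, and 3 were above and 5 below. Twist1 passed without E11.5 wild-type replicate 2 (-0.19, adjusted p = 0.0172). Tbx18, a T-box factor of proximal and anterior mesenchyme, was below at 118, 95.5 and 119 CPM against 216, 224 and 198 (-0.94 ± 0.09, adjusted p = 0.000376). It was also lower in the E11.5 knockout (-0.63, adjusted p = 0.0223) and in the E12.5 wild type (-0.86, adjusted p = 0.00204). Tbx15, which shapes the limb girdle, was below at -0.48 ± 0.06 (adjusted p = 0.00145). Of the anterior limb genes, 2 of 11 were above and 2 below, and those above numbered 1 without E11.5 wild-type replicate 1 or any 1 knockout library. Irx1, an Iroquois homeobox gene, went from 1.29, 4.21 and 0.652 CPM to 22.2, 35.4 and 30.9 CPM (3.84 ± 0.72, adjusted p = 0.026), a call lost without E11.5 wild-type replicate 1 or any 1 knockout library (adjusted p up to 0.0953). Its neighbour gene Irx2 was above with any library left out (1.40 ± 0.22, adjusted p = 0.0025). Asb4, a ubiquitin ligase adaptor gene, was at 152, 95.8 and 108 CPM against 441, 372 and 583 (-1.97 ± 0.25, adjusted p = 0.00752). The calls of Tbx18, Tbx15 and Asb4 held likewise.

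Of 27 Wnt pathway genes 11 were above and 3 below. Axin2, a general Wnt target, was above at 0.43 ± 0.08 (adjusted p = 0.00464). Tcf7 of the same list was below (adjusted p = 0.00717), and Lef1 (adjusted p = 0.673) and Nkd1 (adjusted p = 0.537) did not pass. The agonist Rspo1 was above at 4.02, 6.22 and 8.86 CPM against 1.23, 1.22 and 2.17 (2.05 ± 0.34, adjusted p = 0.00377). The secreted inhibitor Frzb was below at 83.4, 57.8 and 58.2 CPM against 192, 165 and 156 (-1.36 ± 0.16, adjusted p = 0.00223), with a difference of -2.17 in the E12.5 wild type. Of 19 BMP pathway genes 6 were above and 2 below. The ligand gene Bmp4 was below (-0.55 ± 0.11, adjusted p = 0.00648), and the BMP target genes Id2 (0.44 ± 0.07, adjusted p = 0.00341) and Id3 (0.45 ± 0.06, adjusted p = 0.00158) were above. Id1 (adjusted p = 0.545), Smad6 (adjusted p = 0.246) and Smad7 (adjusted p = 0.425) of the same list did not pass. All of these single-gene calls held with any library left out, and the Wnt count above fell to 6 without E12.5 knockout replicate 2. In the insulin-like growth factor system 7 of 13 genes were within 1.5-fold, among them Igf2, and no call held with every library left out.

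Markers of other cell types moved in part with the groups, and their part in the results was not tested. Of 20 surface ectoderm genes 7 were above, led by the basal keratin genes Krt5 (201, 240 and 225 CPM against 113, 126 and 92.4; 1.01 ± 0.11, adjusted p = 0.00111) and Krt15 (1.97 ± 0.19, adjusted p = 0.000795). Krt8, an early simple-epithelium keratin, was the one below, lost without E11.5 wild-type replicate 3 or knockout replicate 1 or 3 (adjusted p up to 0.0641). Of 13 red cell genes 6 were below, among them the erythroid factor gene Klf1 (-2.60 ± 0.45, adjusted p = 0.00476), and the globin gene Hbb-y was unresolved at 2768 to 5483 CPM against 3200 to 7040. The red cell count fell to 2 without E12.5 knockout replicate 1 or 2 and to 4 without replicate 3. Of 20 endothelial genes 14 were within 1.5-fold and 3 above, of which 1 was left without E11.5 wild-type replicate 1 or knockout replicate 1 or 3, and 17 of 18 macrophage genes were unresolved. Of 12 Schwann cell and neural crest genes 4 were above, including the neurotrophin receptor gene Ngfr (1.06 ± 0.15, adjusted p = 0.00294), and 2 without E11.5 wild-type replicate 1 or 3 or knockout replicate 3. The ectoderm marker sum was 264 to 339 CPM in the E11.5 wild type and 450 to 540 in the E12.5 knockout. Neuron markers (Tubb3, Elavl3, Stmn2 and Isl1) summed to 47.5 to 53.8 CPM against 29.3 to 32.2. Isl1, counted above as a hindlimb initiation gene, was itself below, so the neuron sum repeats that difference in part. Schwann cell markers summed to 29.2 to 43.4 CPM against 47.4 to 71.5, and kidney markers (Six2, Wt1 and Pax2) to 25.9 to 30.5 against 40.9 to 51.8. Six2 was itself above (adjusted p = 0.00281), so the kidney sum repeats that difference in part. Somite markers (Meox1, Pax1 and Pax9) summed to 41.1 to 46.8 CPM against 22.2 to 38.9. The groups did not overlap in any of these sums. Gut markers stayed at 0.12 to 0.43 CPM in both groups. Of the notochord markers Noto was at 0 in all 6 libraries, and T was at 1.20 to 1.85 CPM against 0 to 0.16.

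Beyond the lists, changes were ranked by value among genes past the threshold. Only genes with a mean of at least 1 RPKM in either group and no overlap between the groups were ranked. The 10 largest rises by this rule were S100a14, Scin, Myh8, Stfa3, Aldh1a3, Myot, Aspn, Irx1, Myoz2 and Chodl. Aldh1a3, which makes retinoic acid, went from 0.231, 0.633 and 0.391 CPM in the E11.5 wild type to 5.20, 9.19 and 12.2 CPM in the later knockout (4.38 ± 0.42, adjusted p = 0.000507), with 7.19 to 13.6 CPM in the E12.5 wild type. Scin, encoding an actin-severing protein, went from 0.617, 0.657 and 0.0522 CPM to 9.93, 16.0 and 11.6 CPM (4.80 ± 0.60, adjusted p = 0.00386). Knockout and wild type at E12.5 were both high in these genes. Myoz2, a Z-disc protein gene, was at 1.57, 3.03 and 5.23 CPM against 0.157 to 0.308 (3.72 ± 0.50, adjusted p = 0.00149), and Aspn, a matrix proteoglycan gene of tendon and joint, at 2.27, 4.63 and 8.30 CPM against 0.157 to 0.463 (3.86 ± 0.55, adjusted p = 0.00281). Calls of S100a14, Scin, Stfa3, Aldh1a3, Aspn, Myoz2 and Chodl held with any library left out. Those of Myh8, Myot and Irx1 did not. Myh8 was lost without E11.5 wild-type replicate 1 or 3 or knockout replicate 2 or 3 (adjusted p up to 0.128), and Myot without E11.5 wild-type replicate 1 (adjusted p = 0.0798) or 3 (adjusted p = 0.055).

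By the same rule of level and overlap, the 10 largest falls were Klk1b22, Asb17os, Zfp429, Shh, Hemgn, Lin28a, E130114P18Rik, Pitx1, Lmx1a and Snora31. Klk1b22, of the kallikrein protease family, had no fragment in any E12.5 knockout library and 1.92 to 3.47 CPM in the E11.5 wild type, at least 68.1-fold lower when 3 fragments over the group are taken as the floor. In the E12.5 wild type it was at 1.62 to 2.27 CPM, and the E11.5 knockout libraries 3.20, 3.94 and 0 CPM. The family has near-identical copies, so its counts are uncertain. E130114P18Rik, a transcript without a named function, was at 0.569, 0.554 and 0.908 CPM against 5.73, 7.91 and 9.08 CPM (-3.49 ± 0.29, adjusted p = 0.000192). It was low in the E11.5 knockout as well (-3.02, adjusted p = 0.0027). Lmx1a, a LIM homeobox gene, fell by 3.34 ± 0.47 (adjusted p = 0.0019), with a difference of -2.71 in the E12.5 wild type. Asb17os, a name of an antisense gene, was listed at 0 in the later knockout from 0.122 to 1.15 CPM, and without a stated strand setting its fragments cannot be told from its partner's. The calls of Asb17os, Shh, Hemgn and Snora31 were each lost without single libraries (adjusted p up to 0.0815, 0.1, 0.149 and 0.0732), including all 3 knockout libraries in each case.

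Of 1549 falls that met the same rule, 15 had a mean in the E12.5 wild type at or above that of the E11.5 wild type. A last group was made of the 10 largest among these falls. They were Zfp429, Lect1, Pisd-ps3, Lrrc4b, Zfp458, Cbfa2t3, Rbp4, Snap91, Agtpbp1 and Slc39a14. Zfp429, a KRAB-family zinc finger gene, measured 5.91, 7.04 and 6.55 CPM in the E11.5 wild type and 0.0875, 0.163 and 0.173 CPM in the later knockout (-5.47 ± 0.31, adjusted p = 2.46e-05). It was at 6.20 to 7.63 CPM in the E12.5 wild type, and the E11.5 knockout libraries held 0.222, 2.92 and 0.444 CPM. Zinc finger genes of this kind have close copies, and the counting of shared fragments is not given in the sources used here, so the value is uncertain. Slc39a14, a zinc transporter gene, was at 26.2, 25.6 and 28.8 CPM against 37.1, 42.0 and 33.7 CPM, with 39.1 to 44.1 CPM in the E12.5 wild type (-0.48 ± 0.10, adjusted p = 0.00892). Zfp429, Lect1 and Slc39a14 held their call with any library left out, and the other 7 did not. Pisd-ps3, Lrrc4b, Cbfa2t3, Rbp4 and Snap91 each lost it without 3 to 5 of the 6 libraries (adjusted p up to 0.0991, 0.0581, 0.0798, 0.0991 and 0.132). Agtpbp1, Zfp429 and Zfp458 lie on the chromosome of Pitx1, per RefSeq's GRCm38.p6 annotation, where 3.79% of the tested genes with a match lie. So do 2 of the 10 largest rises (Aspn and Irx1) and 2 of the 10 largest falls (Pitx1 and Zfp429). Among all matched genes the share was 4.56% for those below and 3.59% for those above. Agtpbp1, a tubulin-processing enzyme gene, differed by -0.49 ± 0.12 (adjusted p = 0.0164, lost without knockout replicate 2 at 0.0768). Zfp458 differed by -0.84 ± 0.21 (adjusted p = 0.0206), lost without E11.5 wild-type replicate 3 or any 1 knockout library (adjusted p up to 0.0701).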

How the data were processed

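Hindlimb RNA was sequenced with a stranded TruSeq mRNA kit on a NextSeq instrument, per the labels' protocols. FastQC, TopHat2, Cuffdiff and build mm9 are named without versions in the submitters' processing notes, and neither the gene annotation nor the strand setting of the counting is given there. The authors deposited 1 Cuffdiff table per stage. Per the file headers, its raw fragments are estimated counts, some of them fractional, and its RPKM values are per kilobase and library size. Replicates are numbered from 0 in the tables and were taken in order as 1 to 3. Tables were joined by gene name (23919 genes). Left out were 2 date-like names that each stand for 2 genes and 6 genes without a fragment estimate. Fragments were rounded (1.82% were not whole). No replicates agreed within sampling noise.

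The filter (filterByExpr) and TMM factors came from the 12 hindlimb libraries. Each comparison was then fitted on its own 6 libraries with edgeR 4.0.16 in R 4.3.3 (robust quasi-likelihood F test, Benjamini-Hochberg adjustment over 15324 genes, threshold 0.05). SEs and intervals were derived from the F statistic. RPKM served only for minimum levels. On simulated counts for the main comparison (14490 genes), 63 of 97 genes changed by 2-fold (64.9%) were called. So were 47 of 98 changed by 1.5-fold (48.0%), beside 20 false calls among 14295 unchanged genes. The 95% intervals held the true value for 93.8%, 89.8% and 95.2% of these genes in turn. Far fewer genes were changed in the simulation than the 21.5% called in the data, so its rates may not hold there.

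Members and lists were chosen with earlier results of these data known. Named were a fixed set of limb genes, the 10 largest rises and falls (at least 1 RPKM, groups not overlapping), the 10 largest falls whose E12.5 wild-type mean was at or above that of E11.5, and up to 4 members per list and direction. Other genes named (Hoxa10, Hoxd10, Hoxa13, Gli1, Gli2, Krt8, Igf2, Sp7 and further list members) complete a count or were picked with their values in view. The alternatives tried were RLE or upper-quartile factors, scaling and filter from 6 libraries, DESeq2 1.42.0, a mean of 5 RPKM, no filter, a fit without the robust step, a 12-library fit, a replicate block, a 1.5-fold threshold, a 2-fold margin and leaving out each library. List counts with a library left out were added after the data were seen. Genes were matched to RefSeq (GRCm38.p6) by symbol or synonym, 15247 of 15324.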

Additional observations from a re-analysis of the deposited data

How the results depend on the processing

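For the later knockout against the earlier wild type, the total, higher and lower counts stayed within 1.5 times of the main ones under other scaling, filters, DESeq2 (3833), the robust step, the 12-library fit and the replicate block (2869 calls). Upper-quartile factors shifted the split to 1847 higher and 1400 lower. A test for more than 1.5-fold called 113 higher and 71 lower, 184 in all. Leaving out 1 library gave 1577 to 3789 calls, 796 to 1967 higher and 752 to 1822 lower. The unresolved count was 7599 with no filter, 633 at a mean of 5 RPKM and 3073 with a 2-fold margin, and 4657 to 6094 with a library left out, and the count within 1.5-fold was then 6878 to 7912.

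For the wild type between stages, 1406 genes were higher at a mean of 5 RPKM. Over 1.5-fold there were 426 higher and 80 lower, 506 in all. Leaving out a library gave 2155 to 3429 calls, 1223 to 2002 higher and 872 to 1457 lower. For the knockout within E11.5, counts higher, lower and in all were 660, 655 and 1315 with DESeq2, 290, 242 and 532 with no filter, and 563, 464 and 1027 in the 12-library fit. They were 40, 82 and 122 with the replicate block and 2, 7 and 9 over 1.5-fold, and 109 were higher without the robust step. Leaving out a library gave 9 to 711 calls, 2 to 403 higher and 7 to 309 lower. Within E12.5 they were 109, 342 and 451 with DESeq2, 5, 9 and 14 in the 12-library fit and 70, 324 and 394 with the replicate block. There 5 were lower with no filter, 1 at a mean of 5 RPKM and 1 over 1.5-fold, and leaving out a library gave 1 to 31 calls, 0 to 8 higher and 1 to 23 lower. The cause of these moves was not tested.

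Replicates that share a number did not all vary together between the main groups (correlations of 0.097, 0.039 and -0.042 over genes) or within E12.5 (0.12, -0.005 and 0.203), where knockout replicate 2 correlated best with another number, so the numbers were not taken as pairs. With the block the calls of Acta2 (adjusted p = 0.0629), Chrng (0.115) and Myh8 (0.106) were lost and Hoxc10 passed (0.000535). Of 191 named genes tested, 168 passed the threshold, and none of the 168 changed direction. The number that passed in every setting was 38, counted over the settings that tested the gene, as some settings left genes out. The 1.5-fold test ended 130 of the 168 calls. The 6 libraries held 22361170 to 40973176 fragments, and the part of depth in these limits was not tested.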

Other observations

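Of 6 forelimb identity genes 4 were below the E11.5 wild-type level in the later knockout and 2 unresolved, and none was above. Tbx5, the T-box gene of the forelimb, was unresolved at 2.67, 2.70 and 4.45 CPM in the E12.5 knockout against 2.01, 5.45 and 3.55 CPM, a log2 difference of -0.17 with an interval of -0.98 to 0.64. Hoxc6, an anterior HoxC gene, was below at 2.97, 1.37 and 1.86 CPM against 4.83, 5.87 and 6.05 CPM (-1.44 ± 0.29, adjusted p = 0.00721) and was the one of the 4 to hold with any library left out. Without E12.5 knockout replicate 2 it was the single gene below, and without E11.5 wild-type replicate 1 or knockout replicate 1 there were 2. The E12.5 wild type was also lower than E11.5 for 4 of these 6 genes. Its median difference was -1.29, against -1.11 in the later knockout, and the median of knockout minus wild type within E12.5 was 0.075.

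Of 17 glycolysis and hypoxia genes 5 were above, 2 below and 6 within 1.5-fold. Tpi1, a glycolytic enzyme gene, measured 432, 434 and 419 CPM against 339, 322 and 339 CPM (0.36 ± 0.06, adjusted p = 0.00319), with a difference of 0.36 in the E12.5 wild type as well. It was the one call of these 7 to hold with any library left out, and the number above was 2 without E11.5 wild-type replicate 1 or knockout replicate 1 or 2, 3 without wild-type replicate 3 and 1 without knockout replicate 3. Brachyury (T), a gene of the primitive streak and notochord, was low in all libraries, at 1.85, 1.63 and 1.20 CPM in the E11.5 wild type and 0, 0.163 and 0.130 CPM in the later knockout (-3.88 ± 0.62, adjusted p = 0.00305). Its E11.5 knockout libraries held 0.154 to 0.444 CPM (-2.21, adjusted p = 0.045).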
